A study of Mus musculus with 8 samples.

Results

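Glucocorticoid signalling is widely read out through hormone-responsive genes, and 10 of them are described here, *Sgk1*, *Fkbp5*, *Tsc22d3*, *Zbtb16*, *Pdk4*, *Per1*, *Nfkbia*, *Cdkn1a*, *Klf9* and *Plin4*, in single-cell RNA sequencing of mouse oligodendrocytes. The genes were chosen by name with earlier results of these data known, and all 10 were found among the 18833 genes of the matrix. Shares over all genes set beside member counts below are therefore descriptions and not tests of the list. The cells came from female mice, 2 *Fire*+/+ (WT, mice 1 and 4) and 2 *Fire*Δ/Δ (KO, mice 3 and 6), and each mouse gave a hippocampus library (from both hemispheres) and a library of the remaining left hemisphere that the labels call cortex, which made 8 libraries. *Fire*Δ/Δ mice carry a homozygous germline deletion of the Fms intronic regulatory element, a super-enhancer of *Csf1r*, and lack microglia; the deletion is present in every cell and not only in the myeloid lineage. The labels name no hormone or drug treatment of the mice. The age of mice 1 and 3, which formed batches 3 (hippocampus) and 4 (cortex), was 1 month plus 18 days, and that of mice 4 and 6, which formed batches 5 and 6, was 1 month plus 16 days. Each batch therefore held 1 mouse of each genotype, and within a genotype the animal, its age and its batch cannot be told apart.

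Glucocorticoids, corticosterone in mice, rise with stress and with the daily cycle, enter cells and bind the glucocorticoid receptor, encoded by *Nr3c1*. The bound receptor leaves its HSP90 chaperone complex, moves to the nucleus and activates genes by binding palindromic response elements as a dimer, or represses others through partner proteins. Oligodendrocytes express the receptor and are among the brain cells in which *Sgk1*, *Fkbp5* and *Klf9* are known to respond to the hormone. The 10 genes also answer to other inputs, among them insulin and FOXO factors (*Pdk4*), p53 (*Cdkn1a*), NF-κB (*Nfkbia*) and the circadian clock (*Per1*), so that no member alone reads out the hormone. Corticosterone itself was not measured, and the brains were collected at the same time of day.

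In GRCm38 coordinates, *Sgk1* lies at chr10:21882184-21999903 on the plus strand and *Tsc22d3* at chrX:140539528-140600659 on the minus strand. The RefSeq promoter windows of GRCm38.p6, which run from 250 bases before to 50 bases after a transcript start, covered 9 of the 10 members in 18 windows; *Zbtb16* had no entry. The palindrome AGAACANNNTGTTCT, the consensus to which receptor dimers bind, was present in 3 of 32851 windows (0.00913%), and 1 of these was among the 6 windows of *Sgk1*. The hexamer AGAACA, searched on both strands and also a part of that palindrome, occurred in 19.0% of all windows and in 4 of the 18 windows of members, 3 of *Sgk1* and 1 of *Tsc22d3*. The bases before these starts of *Sgk1* (chr10:21993640-21993889, plus strand) and *Tsc22d3* (chrX:140600523-140600772, minus strand) are printed because they carry the only palindrome among the members and the only hexamer outside *Sgk1*, and capitals mark the matches.
Sgk1: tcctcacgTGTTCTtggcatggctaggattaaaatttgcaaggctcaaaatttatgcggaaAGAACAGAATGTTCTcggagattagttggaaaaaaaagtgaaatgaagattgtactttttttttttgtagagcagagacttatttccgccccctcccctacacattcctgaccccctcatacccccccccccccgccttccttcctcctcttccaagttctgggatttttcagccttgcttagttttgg
Tsc22d3: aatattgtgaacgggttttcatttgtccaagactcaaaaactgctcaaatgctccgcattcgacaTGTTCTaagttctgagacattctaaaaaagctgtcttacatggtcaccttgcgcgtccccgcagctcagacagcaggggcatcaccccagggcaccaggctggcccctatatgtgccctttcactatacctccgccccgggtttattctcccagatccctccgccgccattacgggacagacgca
The *Sgk1* palindrome reads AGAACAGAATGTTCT and began 189 bases before the start, and a separate hexamer began 242 bases before the start. A match is a description of these letters and not a site of receptor binding, and response elements outside the windows were not searched. The libraries read transcript 3′ ends, so the counts below do not show from which start of *Sgk1* the RNA came.

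The matrix held 12581 oligodendrocytes, 904 to 2784 per library, with library totals of 12015518 to 27848236 unique molecular identifiers (UMIs, each standing for a captured RNA molecule) and medians of 9377 to 13725.5 UMIs per cell. Median mitochondrial shares were 4.54% to 6.29%, and the methods describe batch 6 (the cortex of mice 4 and 6) as of poorer quality. The oligodendrocyte markers *Mbp*, *Mag* and *Mog* had mean log2 values of 5.30, 4.59 and 3.92 in *Fire*+/+ and 5.31, 4.59 and 3.94 in *Fire*Δ/Δ mice. The 11 microglial markers summed to 0.640 to 1.54 UMIs per 10000 in *Fire*+/+ and 0.154 to 0.219 in *Fire*Δ/Δ libraries, with 1 to 6 of them at 0 in the latter. The 6 astrocyte markers summed to 1.92 to 2.29 UMIs per 10000 in *Fire*+/+ libraries, to 1.55 and 1.77 in mouse 3 and to 2.23 and 1.91 in mouse 6, and the 4 erythrocyte markers to 9.94 and 1.98 in mouse 1, 0.316 and 2.24 in mouse 4, 8.78 and 2.15 in mouse 3 and 2.33 and 0.823 in mouse 6. Mouse 6 was thus below mouse 3 in erythrocyte markers in both tissues, and the part of other cells' RNA in the results was not tested. The libraries shared 21 cell barcodes. Levels below are UMIs per 10000 UMIs of the library, hippocampus before cortex, and the tests used each cell's deposited log2 value averaged over a mouse.

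*Sgk1*, *Fkbp5* and all other members except *Cdkn1a* differed more between the 2 *Fire*Δ/Δ mice than between the 2 *Fire*+/+ mice in mean log2 value. All 10 members had their highest mean log2 value in *Fire*Δ/Δ mouse 6, whereas 25.5% of the 9257 genes tested did. For 6 of them, *Sgk1*, *Fkbp5*, *Tsc22d3*, *Zbtb16*, *Pdk4* and *Klf9*, *Fire*Δ/Δ mouse 3 was the lowest of the 4 mice, so that the *Fire*Δ/Δ mice lay on either side of both *Fire*+/+ mice; 10.2% of the genes tested had that order. No member had both *Fire*Δ/Δ mice above both *Fire*+/+ mice, as 11.9% of the genes tested had.

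The kinase gene *Sgk1*, which encodes a regulator of ion channels and survival signals and is among the strongest hormone-induced genes of oligodendrocytes, stood at 0.763 and 0.645 UMIs per 10000 in mouse 1, 1.20 and 0.938 in mouse 4, 0.550 and 0.531 in mouse 3 and 3.45 and 3.43 in mouse 6. Both libraries of mouse 6 lay far above the other 6, which did not exceed 1.20. Thinned to 5000 UMIs per cell, a UMI of *Sgk1* was expected in 71.3% of mouse 6 cells in both tissues, in 22.1% and 21.4% of mouse 3 cells and in 25.7% to 39.8% of *Fire*+/+ cells; without thinning the shares were 86.9% (95% Clopper-Pearson interval 85.3% to 88.4%, for counting error only) and 88.9% (86.7% to 90.9%) in mouse 6, 36.2% (34.4% to 38.0%) and 42.9% (39.9% to 45.9%) in mouse 3, and 45.0% to 67.1% in *Fire*+/+. Mouse 6 was thus apart in the share of cells as well as in the summed level. The matrix holds oligodendrocytes only, so no cell type that lacks *Sgk1* gives a background share.

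*Fkbp5* encodes a cochaperone that lowers the affinity of the receptor for hormone and closes a short feedback loop. It was sparse, with 0.0339 and 0.0326 UMIs per 10000 in mouse 1, 0.0466 and 0.0572 in mouse 4, 0.0215 and 0.0115 in mouse 3 and 0.123 and 0.119 in mouse 6, which rested on 134, 138, 77 and 405 UMIs. The 4 mice did not overlap, and mouse 3 was lowest in both tissues. *Tsc22d3*, which encodes the anti-inflammatory leucine zipper protein GILZ, had a much smaller range, with 0.882 and 0.866, 1.00 and 0.982, 0.674 and 0.818 and 1.03 and 1.12 UMIs per 10000 in mice 1, 4, 3 and 6. Its highest library was the cortex of mouse 6 and its lowest the hippocampus of mouse 3, and mouse 6 lay only slightly above mouse 4. *Zbtb16*, a zinc finger repressor gene, stood at 0.151 and 0.178, 0.169 and 0.145, 0.0786 and 0.109 and 0.267 and 0.281 UMIs per 10000 in the same order of mice. The *Fire*+/+ libraries overlapped each other, with mouse 3 below and mouse 6 above all of them.

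Among the metabolic members, *Pdk4*, the kinase gene that restrains pyruvate oxidation, stood at 0.0662 and 0.0782 in mouse 1, 0.0739 and 0.0752 in mouse 4, 0.0478 and 0.0651 in mouse 3 and 0.111 and 0.147 in mouse 6, in UMIs per 10000. The 4 *Fire*+/+ libraries lay within 0.0662 to 0.0782, and mouse 3 lay under this range and mouse 6 over it. *Plin4*, which encodes a lipid droplet coat protein, stood at 0.0296 and 0.0343, 0.0667 and 0.0658, 0.0664 and 0.0475 and 0.150 and 0.168 in mice 1, 4, 3 and 6. Here mouse 1 and not mouse 3 was lowest. *Klf9*, a transcription factor gene induced by both glucocorticoids and thyroid hormone, stood at 1.51 and 1.72, 1.93 and 2.02, 0.860 and 0.908 and 2.23 and 2.67. Mouse 3 reached at most 0.908 UMIs per 10000, and no other library was below 1.51.

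Among the members with strong second inputs, *Per1*, a core clock gene with a well-known hormone response, stood at 0.0894 and 0.102 UMIs per 10000 in mouse 1, 0.123 and 0.133 in mouse 4, 0.136 and 0.0726 in mouse 3 and 0.237 and 0.217 in mouse 6. The tissues of mouse 3 lay on either side of all *Fire*+/+ libraries. *Nfkbia*, which encodes the inhibitor that holds NF-κB in the cytoplasm, stood at 0.331 and 0.266, 0.288 and 0.247, 0.330 and 0.239 and 0.447 and 0.456. Mouse 6 lay above the remaining 6 libraries, which overlapped each other. *Cdkn1a*, which encodes the cell cycle inhibitor p21, stood at 0.389 and 0.421, 0.725 and 0.893, 0.647 and 0.681 and 1.00 and 1.11. Its order was mouse 1, mouse 3, mouse 4 and mouse 6, and it was higher in the *Fire*Δ/Δ mouse of each age and in the mouse aged 16 days past the month of each genotype. In UMIs per 10000, both libraries of mouse 6 lay above the other 6 libraries for 10 of 10 members (9.66% of the genes tested), and by mean log2 value for all but *Tsc22d3* (7.04%). Both libraries of mouse 3 lay below the other 6 in UMIs per 10000 for 6 members (10.8% of the genes tested).

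**Figure D1:**
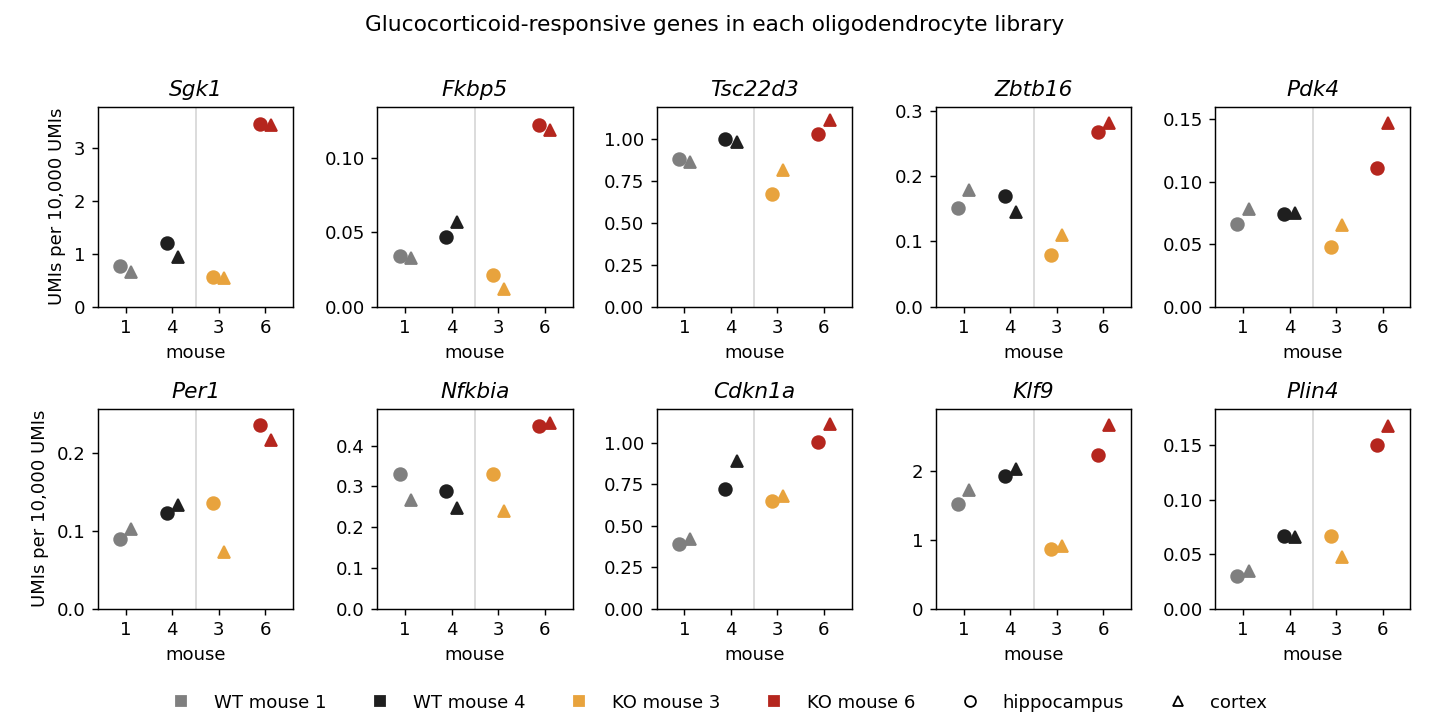
UMIs per 10000 UMIs of each member (vertical axes, each starting at 0) in the 8 libraries, by mouse (horizontal axes; WT is *Fire*+/+, KO is *Fire*Δ/Δ); circles are hippocampus and triangles cortex, and each point is 1 library. Both points of mouse 6 are on top in all 10 panels, and both points of mouse 3 are at the bottom for *Sgk1*, *Fkbp5*, *Tsc22d3*, *Zbtb16*, *Pdk4* and *Klf9*.

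Genotype was compared over all oligodendrocytes with limma on the mean log2 value of each mouse, 2 against 2, with Benjamini-Hochberg adjustment over 9257 genes. No member was called, and neither was any other gene (0% of genes tested); 209 genes and no member had an unadjusted p under 0.05, and every member had an adjusted p of 1. On UMI sums, edgeR called 8 genes and DESeq2 49, none of them a member. The member differences were 8 higher and 2 lower in *Fire*Δ/Δ with a median of 0.029 on the log2 scale, beside 0.0013 over all genes tested.

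*Sgk1* had a mean log2 value of 0.61 ± 0.15 (SD, n = 2) in *Fire*+/+ and 1.01 ± 0.87 (n = 2) in *Fire*Δ/Δ mice, a difference of 0.41 with a standard error of 0.49. Without mouse 6 the difference was -0.21, so that mouse 6 set its sign. *Klf9* had 1.08 ± 0.12 and 0.99 ± 0.52, a difference of -0.098 with a standard error of 0.29. Without mouse 3 this was 0.27, the opposite sign. *Zbtb16* (0.017), *Pdk4* (0.016), *Per1* (0.038) and *Nfkbia* (0.057) also had differences above 0 that turned to -0.052, -0.012, -0.011 and -0.0055 without mouse 6. *Tsc22d3* differed by -0.019, and by 0.077 without mouse 3 and 0.027 without mouse 4. *Fkbp5* differed by 0.020 with a standard error of 0.036, and without mouse 6 it was seen in too few cells to be tested. The other *Fire*Δ/Δ mouse, mouse 3, had a mean log2 value of 0.013 for *Fkbp5*, below 0.028 in mouse 1 and 0.044 in mouse 4. *Cdkn1a* (0.15, standard error 0.14) and *Plin4* (0.046, standard error 0.035) kept a positive sign whichever mouse was left out, but *Cdkn1a* was 0.016 without mouse 1 and 0.036 without mouse 6, and 0.28 without mouse 4 and 0.26 without mouse 3. *Plin4* was 0.0056 without mouse 6 and 0.031 to 0.086 without any other mouse. Without mouse 3, all 10 members were higher in *Fire*Δ/Δ, with a median difference of 0.086 beside 0.0031 over all genes tested. Without mouse 6, 7 of 9 were lower, with a median of -0.012 beside -0.00052 over all genes tested.

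Within batches, where 1 *Fire*Δ/Δ library is set against 1 *Fire*+/+ library of the same tissue and age, *Sgk1* had 0.721 and 0.823 times the *Fire*+/+ level in batches 3 and 4 and 2.86 and 3.65 times in batches 5 and 6. *Fkbp5* (0.635, 0.354, 2.63 and 2.08 times), *Zbtb16* (0.520, 0.613, 1.58 and 1.94), *Pdk4* (0.722, 0.833, 1.5 and 1.96) and *Klf9* (0.568, 0.529, 1.15 and 1.32) changed sides in the same way between the pairs of mice, and so did *Tsc22d3* with smaller ratios (0.765, 0.944, 1.03 and 1.14). By mean log2 value, however, *Tsc22d3* was below *Fire*+/+ in batch 5 as well (difference -0.017). *Nfkbia* was close to the *Fire*+/+ level in batches 3 and 4 (0.996 and 0.896 times) and above it in batches 5 and 6 (1.55 and 1.85 times). *Per1* was below the *Fire*+/+ level in batch 4 only (1.52, 0.709, 1.92 and 1.63 times). *Cdkn1a* and *Plin4* were the members with *Fire*Δ/Δ above *Fire*+/+ in all 4 batches, an order that 13.4% of the genes tested had; the ratios were 1.66, 1.62, 1.38 and 1.25 for *Cdkn1a* and 2.24, 1.38, 2.25 and 2.56 for *Plin4*. No member was below *Fire*+/+ in all 4 batches (9.90% of the genes tested). Each batch holds 1 library per genotype, so these ratios have no replicate within a batch.

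**Figure D2:**
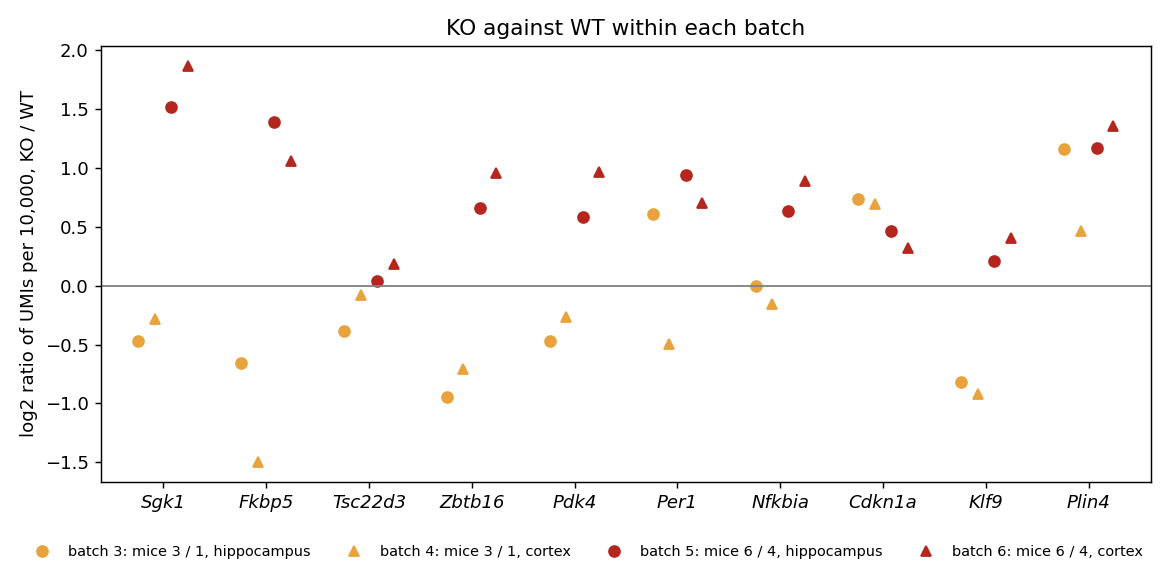
Log2 ratio of UMIs per 10000, KO (*Fire*Δ/Δ) over WT (*Fire*+/+), for each member in each batch; circles are hippocampus, triangles cortex, yellow the pair of mice 3 and 1, red the pair of mice 6 and 4, and the grey line is equality. *Sgk1*, *Fkbp5*, *Tsc22d3*, *Zbtb16*, *Pdk4*, *Nfkbia* and *Klf9* lie below the line in both yellow batches (*Nfkbia* at 0.996 times in batch 3) and above it in both red ones, while *Cdkn1a* and *Plin4* lie above it in all 4.

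For all 10 members the mean log2 values of mice 3 and 6 were further apart than the genotype means. Mouse was therefore set against mouse within each genotype, a comparison chosen after the values were seen and given without a test. In *Fire*Δ/Δ, 8 of 10 members were over 1.5 times higher in mouse 6 than in mouse 3 in both tissues, a ratio that 1.87% of the genes tested reached, and none was that much lower (0.875% of the genes tested). *Sgk1* was 6.26 times higher in hippocampus and 6.45 times in cortex, and *Fkbp5* 5.69 and 10.3 times. Ranked by the smaller of the 2 ratios among 9257 genes, *Sgk1* came at place 2, *Fkbp5* at 3, *Klf9* at 10 (2.59 and 2.94 times), *Zbtb16* at 11 (3.40 and 2.57), *Pdk4* at 19 (2.32 and 2.26) and *Plin4* at 20 (2.26 and 3.54). Place 1 was held by *Scrg1*, which is not a member. *Fkbp5* was under the filter of 5% of cells when mouse 6 was left out. Its place 3 therefore rests on the same high values of mouse 6 that let it into the genes tested. The same holds for its part in the counts of members that were higher or highest in mouse 6. *Per1* was at place 57 (1.74 and 2.99 times), *Cdkn1a* at 119 (1.55 and 1.63), *Tsc22d3* at 381 (1.53 and 1.36) and *Nfkbia* at 413 (1.35 and 1.91).

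The same pair of ages and batches was then compared in *Fire*+/+. Only *Cdkn1a* (1.87 and 2.12 times) and *Plin4* (2.25 and 1.92 times) of the members were over 1.5 times higher in mouse 4 than in mouse 1 in both tissues, beside 1.24% of the genes tested, and none was that much lower (1.25% of the genes tested). *Sgk1* was 1.58 and 1.45 times higher in mouse 4, *Fkbp5* 1.37 and 1.76 times and *Klf9* 1.27 and 1.18 times, while *Zbtb16* (1.12 and 0.813) and *Pdk4* (1.12 and 0.962) had ratios on both sides of 1. The median member ratio on the log2 scale was 1.33 for mouse 6 over mouse 3 and 0.36 for mouse 4 over mouse 1, and over all genes tested it was 0.061 and 0.018.

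**Figure D3:**
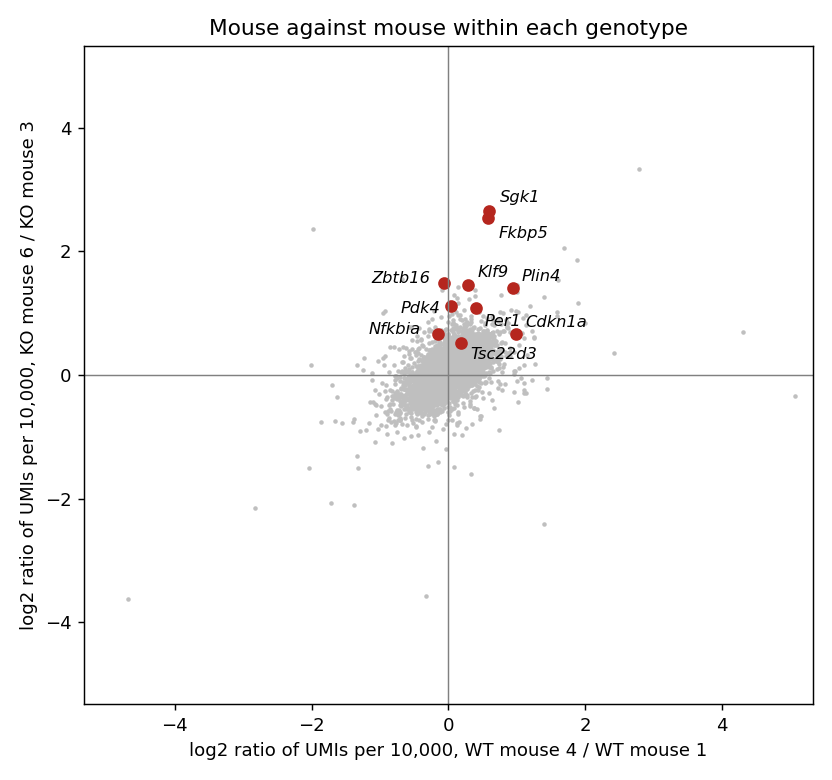
Log2 ratio of UMIs per 10000 of KO (*Fire*Δ/Δ) mouse 6 over mouse 3 (vertical axis) against that of WT (*Fire*+/+) mouse 4 over mouse 1 (horizontal axis), the mean of both tissues with 0.005 added, for the 9257 genes tested (grey) and the 10 members (red). All 10 members lie above 0 on the vertical axis, and *Sgk1* and *Fkbp5* are near the top of the cloud.

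The receptors, chaperones and coregulators on the lists had no tested gene past 1.5 times between mice 6 and 3 in both tissues. The glucocorticoid receptor gene *Nr3c1* stood at 2.56 and 2.55 UMIs per 10000 in mouse 1, 2.52 and 2.32 in mouse 4, 2.32 and 2.29 in mouse 3 and 2.40 and 2.21 in mouse 6, which put mouse 6 at 1.03 and 0.965 times mouse 3. By genotype its mean log2 value was 1.43 in *Fire*+/+ and 1.35 in *Fire*Δ/Δ (difference -0.072, standard error 0.018, limma adjusted p = 1). *Nr3c2*, which encodes the mineralocorticoid receptor and binds the same hormone with higher affinity, differed by 0.0012. The lists held 2 tested receptor genes, 10 chaperone and cochaperone genes and 12 coregulator genes. *Hsp90aa1* and *Hsp90ab1*, which hold the receptor ready for hormone, were lower in mouse 6 than in mouse 3, at 0.814 and 0.761 times and at 0.729 and 0.693 times.

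Of 13 tested genes on a list of other glucocorticoid-responsive genes (22 on the list), 2 were over 1.5 times higher in mouse 6 than in mouse 3 in both tissues, *Klf15* (1.73 and 1.74 times) and *Arrdc2* (1.54 and 1.58 times), and none was that much lower. The list's median log2 ratio was 0.19. *Mt1* (1.04 and 1.04 times), a metallothionein gene, and *Ddit4* (1.19 and 1.13 times), an inhibitor of mTOR, were near equality, and *Glul*, which encodes glutamine synthetase, was at 0.928 and 0.761 times. *Mfsd2a* (1.80 and 1.25 times) and *Gpd1* (1.27 and 1.32 times) were higher in mouse 6 without passing 1.5 times in both tissues. Under the filter, *Mertk* had 0.00287 and 0.00271 UMIs per 10000 in mouse 3 and 0.0140 and 0.0158 in mouse 6. Past 1.5 times, the high level of mouse 6 was thus seen for some and not all tested genes that are known to answer to the hormone. None of the lists for circadian clock (11 tested), NF-κB (3), p53 (10), FOXO and PPAR (8) or immediate early genes (5) had a tested gene past 1.5 times in both tissues between mice 6 and 3. Genes seen in under 5% of cells were not counted. Among them *Cpt1a* had 0.0259 and 0.0244 UMIs per 10000 in mouse 3 and 0.0402 and 0.0549 in mouse 6. *Pdk1* had 0.0241 and 0.0143 in mouse 3 and 0.0421 and 0.0491 in mouse 6. *Junb* went the other way, from 0.233 and 0.0903 in mouse 3 to 0.0977 and 0.0558 in mouse 6. *Dbp*, a clock output gene, was at 0.883 and 0.806 times in mouse 6 against mouse 3, and at 0.438 and 0.484 times in mouse 4 against mouse 1.

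Between genotypes, limma called no gene of any of these lists. By the largest differences, *Cebpd*, a transcription factor gene induced by hormone and by inflammation, had a mean log2 value of 0.038 in *Fire*+/+ and 0.22 in *Fire*Δ/Δ (difference 0.18, standard error 0.016, adjusted p = 0.767), and *Rhob* differed by 0.15, while *Glul* (-0.30) and *Klf15* (-0.0077) were the lowest on the list of other responsive genes. *Hsp90aa1* (0.19) and *Hsp90ab1* (0.12) were highest and *Stub1* (-0.0051) and *Bag1* (0.0010) lowest among chaperones and cochaperones. Among coregulators *Ncor1* (-0.11) and *Ep300* (-0.038) were lowest and *Hdac3* (0.0094) was above 0, with 10 of 12 below 0. The median of this list was -0.012, beside 0.0013 over all genes tested. *Clock* (0.070) and *Bhlhe40* (0.0060) against *Tef* (-0.051) and *Nr1d2* (-0.046) framed the clock list, of which 8 of 11 were below 0 with a median of -0.018. For p53 targets the range ran from *Phlda3* (0.077) and *Mdm2* (0.048) to *Trp53inp1* (-0.018) and *Zmat3* (-0.0075), for FOXO and PPAR targets from *Irs2* (0.035) and *Ppard* (0.026) to *Foxo4* (-0.0056) and *Foxo3* (-0.0031), and for the 5 immediate early genes that passed the filter, of 13 on the list, from *Jun* (0.017) and *Nr4a1* (0.012) to *Arc* (-0.054) and *Dusp1* (-0.0035). The 3 tested NF-κB genes, *Relb*, *Nfkb2* and *Nfkb1*, differed by 0.0067, 0.0030 and 0.0029.

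These ranges leave out genes seen in under 5% of cells. Among the immediate early genes left out, which are switched on rapidly by many stimuli, *Fos* had 0.00945 and 0.00414 UMIs per 10000 in mouse 1, 0.0129 and 0.00313 in mouse 4, 0.427 and 0.0862 in mouse 3 and 0.198 and 0.0841 in mouse 6. *Junb* had 0.0107 to 0.0201 in *Fire*+/+ and 0.0558 to 0.233 in *Fire*Δ/Δ libraries, and *Klf4* 0.00947 to 0.0157 and 0.0380 to 0.110. All 3 genes, which were picked after their values were seen, were thus higher in every *Fire*Δ/Δ library than in any *Fire*+/+ library. Of the others left out, *Ier2* and *Atf3* had that order too, while *Egr1*, *Fosb* and *Klf2* overlapped between genotypes. *Egr1* stood at 0.0129 in the mouse 3 cortex and at 0.0208 in the mouse 4 hippocampus. No share over all genes is given for this order. With no filter, limma gave *Fos* a difference of 0.092, *Junb* 0.057 and *Klf4* 0.035, each at an adjusted p of 1, and the part of such genes' levels in the results for the members was not tested.

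The cluster labels Oligo1 to Oligo4 came with the deposited cells, and clusters were made from these same cells, so cluster levels are given without a test. Oligo1 was almost absent from *Fire*+/+ libraries, which held 6 such cells in all, and the members were therefore compared between genotypes without it. Over Oligo2 to Oligo4, limma called none of 9232 genes (0%; 133 at an unadjusted p under 0.05, and 3 by edgeR and 15 by DESeq2) and no member, with *Sgk1* at a difference of 0.42 (standard error 0.50) and *Klf9* at -0.069 (standard error 0.30). Without mouse 6 these were -0.21 for *Sgk1*, and without mouse 3 0.30 for *Klf9*. Within Oligo2, Oligo3 and Oligo4 no member and no gene (0%) was called, with 139, 103 and 282 genes at an unadjusted p under 0.05 and 4, 3 and 25 called by edgeR. *Sgk1* differed by 0.41, 0.47 and 0.36 in these clusters, with standard errors of 0.44, 0.55 and 0.34. Without mouse 6 these were -0.17, -0.23 and -0.11.

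The order of the mice was also seen inside the clusters of the same libraries. Mouse 6 had the highest mean log2 value of the 4 mice for 10 of 10 members in Oligo2, 10 in Oligo3 and 8 in Oligo4. *Tsc22d3* and *Pdk4* were the exceptions in Oligo4. Of 9257 genes, 26.9%, 25.9% and 23.6% had that order in these clusters. Mouse 3 had the lowest for 8 members in Oligo2, 8 in Oligo3 and 5 in Oligo4, against 28.5%, 31.1% and 28.1% of all genes. Within Oligo1, mouse 6 was above mouse 3 for all 10 members and for 53.2% of all genes. *Sgk1* averaged 2.87, 3.18, 4.03 and 2.34 UMIs per 10000 in Oligo1 to Oligo4 of mouse 6, and 0.597, 0.523, 0.559 and 0.373 in mouse 3.

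Across clusters of the same library, orders were counted on mean log2 values. *Sgk1* and *Plin4* were higher in Oligo3 than in Oligo2 in 8 of 8 libraries, and *Klf9*, *Pdk4* and *Cdkn1a* were higher in Oligo2 than in Oligo3 in 8 of 8. Oligo4 had less *Sgk1*, *Zbtb16*, *Nfkbia* and *Klf9* than Oligo3 in 8 of 8 libraries and more *Per1* in 8 of 8. In UMIs per 10000, however, *Per1* of the mouse 4 cortex was lower in Oligo4 (0.121, from 16 UMIs) than in Oligo3 (0.137). In Oligo1 of the 4 *Fire*Δ/Δ libraries, *Per1* and *Nfkbia* were above the mean log2 value of Oligo2 to Oligo4 in all 4. *Tsc22d3*, *Zbtb16* and *Klf9* were below it in all 4. In UMIs per 10000, *Zbtb16* of the mouse 3 hippocampus was instead slightly higher in Oligo1 (0.0798) than in Oligo2 to Oligo4 (0.0781). *Per1* stood at 0.287 UMIs per 10000 in Oligo1 and 0.0654 in the other cells of the mouse 3 hippocampus, 0.171 and 0.0567 in its cortex, 0.409 and 0.184 in the mouse 6 hippocampus and 0.322 and 0.204 in its cortex. Taken alone, Oligo4 was above Oligo1 for *Per1* in both of these cortex libraries, at 0.215 in mouse 3 (16 UMIs) and 0.332 in mouse 6 (35 UMIs). The members thus did not share a cluster order.

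**Figure D4:**
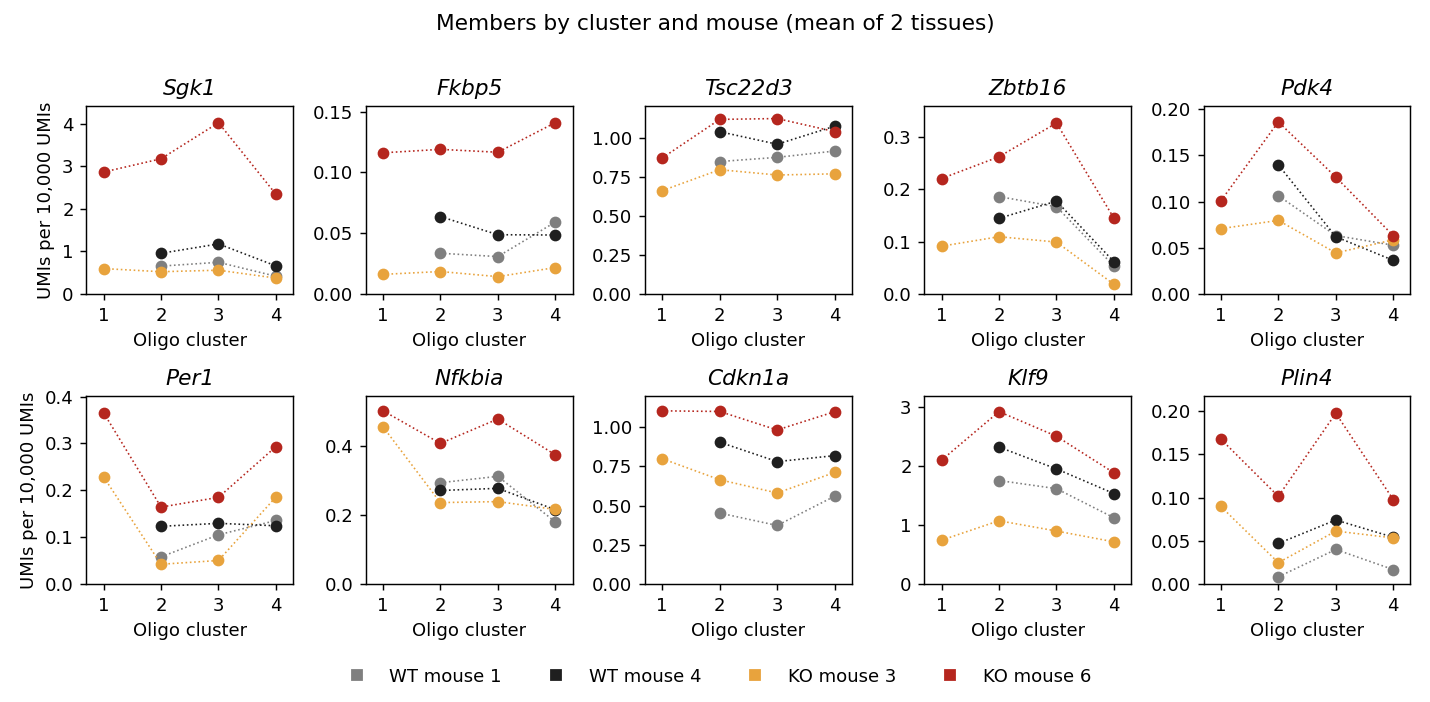
UMIs per 10000 of each member (vertical axes from 0) in the clusters Oligo1 to Oligo4 (horizontal axes) of each mouse, as the mean of its hippocampus and cortex libraries; dotted lines join the clusters of 1 mouse, WT is *Fire*+/+ and KO *Fire*Δ/Δ, and Oligo1 is shown for KO mice only because WT libraries held 6 such cells. *Sgk1* of mouse 6 lies between 2.34 and 4.03 in every cluster, above all other mice. *Per1* of mice 3 and 6 is highest in Oligo1 in this mean of tissues, but not in their cortex libraries alone.

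Hippocampus was compared with cortex over the 8 libraries with genotype in the limma fit. No member and no gene (0% of 9257) was called, with 490 genes and no member at an unadjusted p under 0.05. The member differences, hippocampus minus cortex, ran from -0.10 for *Klf9* (standard error 0.21) to 0.037 for *Sgk1* (standard error 0.35), with 3 above and 7 below 0 and a median of -0.0083 beside -0.0051 over all genes tested. *Sgk1* had the opposite sign in *Fire*Δ/Δ libraries alone (-0.021). With mouse as a block, which pairs both tissues of an animal, no gene was called, 1450 genes had an unadjusted p under 0.05 and 2 of these were members. The genotype by tissue interaction was called for no gene (0% of 9257; 574 at an unadjusted p under 0.05); *Tsc22d3* (-0.10, standard error 0.024, limma adjusted p = 0.792) and *Sgk1* (-0.12, standard error 0.036, limma adjusted p = 0.793) were the members with an unadjusted p under 0.05. For *Sgk1* the hippocampus minus cortex difference was 0.096 in *Fire*+/+ and -0.021 in *Fire*Δ/Δ mice, small beside the distance between mice 6 and 3.

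Over the 28 profiles of a library and cluster with at least 30 cells, the members' mean log2 values were correlated with each other, as a description of profiles that share libraries, depth and animals. Pearson's r was above 0 for 45 of 45 pairs of members, beside 52.5% of all pairs of genes tested. Its median was 0.59, beside 0.02 over all pairs of genes tested, and it ran from 0.015 (*Pdk4* and *Per1*) to 0.867 (*Sgk1* and *Fkbp5*). The genes most like *Sgk1* were *Ppp1r13b* (r = 0.919), *Jade2* (0.872) and *Fkbp5* (0.867), and those most like *Fkbp5* were *Ppp1r13b* (0.879), *Sgk1* (0.867) and *Jade2* (0.863). Those most like *Nfkbia* were *Plin4* (0.821), *Il12a* (0.812) and *Sgk1* (0.788), and those most like *Plin4* were *Sgk1* (0.823), *Nfkbia* (0.821) and *Il12a* (0.808). For 4 of the 10 members another member was among the 3 most similar of all genes tested. No share over other genes is given for this count, so it describes the list and does not set it apart from other genes. *Sgk1* was in this count through *Fkbp5* alone, and *Fkbp5* through *Sgk1* alone. *Fkbp5* was under the filter when mouse 6 was left out. Its values of r, and its part in the counts of pairs and of similar genes, therefore rest on the high values of mouse 6 that let it into the genes tested. *Klf9* was most like *Map7* (0.912), *Adipor2* (0.898) and *Otud7b* (0.887), *Zbtb16* most like *Adipor2* (0.876), *Mast4* (0.856) and *Lysmd2* (0.854), and *Tsc22d3* most like *Taok2* (0.843), *Cds2* (0.840) and *Amer2* (0.837). For *Pdk4* these were *Rhpn2* (0.889), *Bcat1* (0.873) and *Gm9895* (0.855), for *Per1* *Sik3* (0.881), *Adamtsl1* (0.877) and *Zfp365* (0.871), and for *Cdkn1a* *Gm47283* (0.890), *Shmt1* (0.824) and *Scrg1* (0.816).

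Cell by cell, the mean number of members with at least 1 UMI was 2.52 and 2.90 in the hippocampus and cortex of mouse 1, 3.58 and 3.24 in mouse 4, 2.26 and 2.81 in mouse 3 and 4.05 and 4.58 in mouse 6. Cells with UMIs of 5 or more members made up 34.9% (95% Clopper-Pearson interval 32.7% to 37.0%) and 51.0% (47.7% to 54.3%) of mouse 6 libraries, 4.63% (3.88% to 5.48%) and 8.75% (7.13% to 10.6%) of mouse 3 libraries and 5.90% to 22.5% of *Fire*+/+ libraries. These numbers, which were not thinned, grow with depth; the mouse 6 libraries had medians of 10794 and 13250.5 UMIs per cell, inside the range of the others.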

How the data were processed

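Genotype, tissue, mouse and age were taken from the labels, and batch and the Oligo1 to Oligo4 clusters from the deposited cell table. The authors aligned reads with Cell Ranger 5.0.0 to mm10 (GRCm38), kept mature oligodendrocytes with at least 5000 UMIs, gated doublets out by scatter when sorting, used actinomycin D during dissociation, and deposited log2 values, log2 of the UMI count over the scran size factor plus 1. No doublet caller was run here. UMI counts were recovered from the deposited values and size factors, all whole within 0.001, and library totals of 12015518 to 27848236 set the counting precision. The deposited table also gives each cell's UMI count and mitochondrial UMI count, and the size factor, a score per cell from the authors' scran run.

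Log2 values were averaged over cells per library, then over both tissues of a mouse, and limma 3.58.1 in R 4.3.3 was run on every gene seen in 5% of cells or more (two-sided moderated test, Benjamini-Hochberg adjustment, threshold 0.05), 2 mice against 2. UMI rates are UMIs per 10000 UMIs of the library, and thinned shares are hypergeometric expectations at 5000 UMIs per cell. Alternatives were edgeR 4.0.16 and DESeq2 1.42.0 on UMI sums, log2 of the mean plus 0.1, UMIs per 10000, a 10% filter or none, single tissues, a batch block, a mouse block, and each mouse left out. The fit was also run on simulated data, with less spread between mice than *Sgk1* and *Klf9* had among *Fire*Δ/Δ mice. That run does not show what the fit could detect for such members. Both libraries with 1 mouse number come from 1 animal, which pairs the tissues; across 9257 genes, their deviations from group means correlated at 0.84 in *Fire*+/+ and 0.85 in *Fire*Δ/Δ. Promoter windows and gene positions came from RefSeq GRCm38.p6 and GENCODE GRCm38.

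The members and gene lists were chosen with earlier results of these data known. All members are named, *Nr3c1* and *Nr3c2* always, from other pathway lists the genes called or else the 2 highest and 2 lowest genotype differences, and the 3 genes most similar to each member. Genes named for mouse ratios (*Scrg1*, *Klf15*, *Arrdc2*, *Mt1*, *Ddit4*, *Glul*, *Mfsd2a*, *Gpd1*, *Dbp*) or for levels under the filter (*Fos*, *Junb*, *Klf4*, *Ier2*, *Atf3*, *Egr1*, *Fosb*, *Klf2*, *Cpt1a*, *Pdk1*, *Mertk*) were picked after their values were seen. Some genes that this rule names are not reported here.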

Additional observations from a re-analysis of the deposited data

Results flagged for a closer look

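For 6 members, every library of the pair of mice aged 1 month and 18 days moved one way between genotypes and every library of the pair aged 1 month and 16 days the opposite way. Of 9257 genes, 12.9% had opposite signs in the 2 pairs in this way, and 6.00% had the direction of *Sgk1*, below *Fire*+/+ in the first pair and above it in the second. The *Fire*Δ/Δ minus *Fire*+/+ difference in mean log2 value, averaged over both tissues, was -0.10 in the first pair and 0.91 in the second for *Sgk1*, a distance of 1.02 between pairs. For *Klf9* it was -0.38 and 0.18, a distance of 0.56. The distances were 0.14 for *Nfkbia*, 0.14 for *Zbtb16*, 0.07 for *Fkbp5* and 0.05 for *Pdk4*. These differences between pairs were not tested, since a pair holds 1 mouse per genotype. No group had the 4 samples needed to look for a sample far from the others.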

How the results depend on the processing

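No alternative called a member in any comparison. Over all genes, the count called between genotypes was 0 with limma; it was 2 on the log2 mean plus 0.1, 3 on UMIs per 10000, 1 without a filter, 8 with edgeR and 49 with DESeq2, and over Oligo2 to Oligo4 it was 2, 2, 1, 3 and 15 in the same order. Within Oligo2, Oligo3 and Oligo4 edgeR called 4, 3 and 25. With mouse as a replicate block, which pairs the tissues of an animal, hippocampus against cortex stayed at 0 called and no member's call changed. Over all cells, over Oligo2 to Oligo4 and between tissues, these member differences changed sign apart from leaving out mice, all within 0.04 of 0 on their log2 scales: *Tsc22d3* between genotypes in cortex only (0.032), and over Oligo2 to Oligo4, where it was 0.0033, on the log2 mean plus 0.1 (-0.0040), UMIs per 10000 (-0.0042), DESeq2 (-0.0037), edgeR (-0.0048) and hippocampus only (-0.037); and between tissues *Sgk1* (-0.021) and *Fkbp5* (0.00092) in *Fire*Δ/Δ only, *Tsc22d3* (0.0061) and *Per1* (-0.010) in *Fire*+/+ only, and *Fkbp5* (0.015) and *Plin4* (0.0076) on UMIs per 10000. Leaving out each mouse in turn changed the sign of these differences. Between genotypes over all cells, the range was for *Sgk1* from -0.21 to 1.02, *Tsc22d3* from -0.12 to 0.077, *Zbtb16* from -0.052 to 0.085, *Pdk4* from -0.012 to 0.044, *Per1* from -0.011 to 0.087, *Nfkbia* from -0.0055 to 0.12 and *Klf9* from -0.46 to 0.27. Over Oligo2 to Oligo4, it was for *Sgk1* from -0.21 to 1.06, *Tsc22d3* from -0.095 to 0.10, *Zbtb16* from -0.051 to 0.094, *Pdk4* from -0.012 to 0.048, *Per1* from -0.042 to 0.065, *Nfkbia* from -0.035 to 0.11 and *Klf9* from -0.44 to 0.30. Between tissues, it was for *Fkbp5* from -0.0046 to 0.00048, *Per1* from -0.0059 to 0.012 and *Plin4* from -0.0075 to 0.0025. Within Oligo2, it was for *Sgk1* from -0.17 to 0.98. Within Oligo3, it was for *Sgk1* from -0.23 to 1.16. Within Oligo4, it was for *Sgk1* from -0.11 to 0.83. Within Oligo2, Oligo3 and Oligo4, members higher in *Fire*Δ/Δ numbered 9, 8 and 8 of 10, 8, 7 and 7 in hippocampus only and 9, 9 and 9 in cortex only. The median difference over all genes tested in these clusters was 6.8e-05, 0.00017 and -0.00067 with both tissues. Of members within clusters, alternatives are given for *Sgk1*. *Fkbp5* could not be tested without mouse 6, being under the filter. The cause of these changes was not tested beyond the mouse left out. With 2 mice per genotype and 77 to 405 UMIs of *Fkbp5* per mouse, small genotype differences were not detectable. Large ones could go uncalled too, as for *Cebpd*, at a mean log2 value of 0.038 in *Fire*+/+ and 0.22 in *Fire*Δ/Δ mice (limma adjusted p = 0.767). A member without a call is therefore not shown to be equal between genotypes.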
